A study of Mus musculus with 6 samples.

Results

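Acute-phase proteins are plasma proteins that the liver releases in changed amounts during infection or injury. The 10 genes described here encode serum amyloid A proteins (Saa1, Saa2, Saa3 and Saa4), haptoglobin (Hp), orosomucoids (Orm1 and Orm2), pentraxins (Crp and Apcs) and the lipopolysaccharide-binding protein (Lbp). They were chosen by gene symbol, and all 10 of the 10 had a row among the 35977 genes of the count table. Interleukin-6, acting through STAT3, together with interleukin-1, acting through NF-kB, and the C/EBP transcription factors are known to raise many acute-phase genes in hepatocytes. Some of the proteins are made at a steady level in the resting liver, while others are made in quantity only after a stimulus. In mice, serum amyloid P, the product of Apcs, is the pentraxin that responds strongly in inflammation, whereas C-reactive protein responds little.

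RNA was sequenced from bulk mouse liver after an adeno-associated virus of serotype 9 (AAV9) carrying Cre recombinase under the promoter of Tnnt2, the cardiac troponin T gene. One group of 3 libraries (Cre replicates 10, 11 and 12) received this vector. The other group of 3 libraries (Cre-miR122 replicates 1, 2 and 4) received the same kind of vector with added target sites of miR-122, which is the main microRNA of hepatocytes. No uninjected liver was analysed here, so every library carries a Cre vector driven by a promoter of heart muscle cells. The labels give no strain, genotype, age, sex, dose or time, and give no link from a library to an animal. The p-values therefore measure the spread between these libraries, and what part of it lies between animals is not known.

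Library totals lay between 20340994 and 20817837 counts, and no 2 libraries were alike within counting noise (lowest chi-square per degree of freedom 5.76). The hepatocyte markers were present throughout, with Alb, the albumin gene, at 93392 to 116981 CPM (counts scaled to library size, with TMM factors). The Cre transcript had 37 to 61 counts in the Cre libraries and 10 to 16 in the Cre-miR122 libraries. Xist, which coats the inactive X chromosome, had 5 counts in Cre replicate 10 and 15778 to 22413 in the other libraries. Ddx3y, a gene of the Y chromosome, had 1676 counts in Cre replicate 10 and 0 to 1 in the others, so that the Cre group held 1 library with a male pattern and the Cre-miR122 group none. Without Cre replicate 10, 0 members passed and the log2 fold changes below were -0.37 to 1.04. On the first principal component, Cre replicate 11 took the most extreme position (-26.9). The 10 neutrophil markers, all with a row, summed to 23.3 to 30.3 CPM with Cre but 20.2 to 21.3 CPM for Cre-miR122, without overlap, and the defining marker Ly6g had 0 to 2 counts per library. Of the 9 neutrophil markers tested, 0 passed, all 9 lay below 0 (49.4% of all genes lay above it) and the median log2 fold change was -0.45. Groups did not overlap for 4 of the 9 and the unadjusted p was under 0.05 for 3, beside 11.1% and 5.41% of all genes. The Kupffer cell and macrophage markers summed to 584 to 708 CPM with Cre but 488 to 633 CPM for Cre-miR122 (0 of 10 passed, 8 below 0). The hepatocyte, endothelial and stellate, and adipocyte marker lists also had 0 genes that passed, and their sums overlapped between the groups. In bulk tissue, fewer cells of a type and less RNA per cell cannot be told apart.

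The 10 genes fell into a high and a low set that were separate in every library. Per kilobase of exon, which allows a comparison between genes, the mean level over the 6 libraries was highest for Hp at 2839 CPM per kb, followed by Apcs at 253, Crp at 179, Saa4 at 127 and Lbp at 94.1. The remaining 5 genes were far lower, Saa1 at 4.60 CPM per kb, Saa3 at 4.005, Orm1 at 1.24, Saa2 at 0.936 and Orm2 at 0.376. Neighbours in this order overlapped for Apcs and Crp, Saa1 and Saa3, Orm1 and Saa2, and Saa2 and Orm2, and these were not tested against each other. The exonic lengths used were 913 bases for Saa1 and 884 for Saa2, against 609 and 652 for the transcripts compared below. The order of close neighbours such as Orm1 and Saa2 depends on which length is used. No library of the high set lay below 77.3 CPM per kb, and no library of the low set lay above 5.98. Hp ranked 18 in the whole table on this scale, while Orm2 ranked 13247. Together the 10 genes took 0.444% to 0.555% of all counts in a library, of which Hp alone supplied 77.2% to 80.4%.

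**Figure D1:**
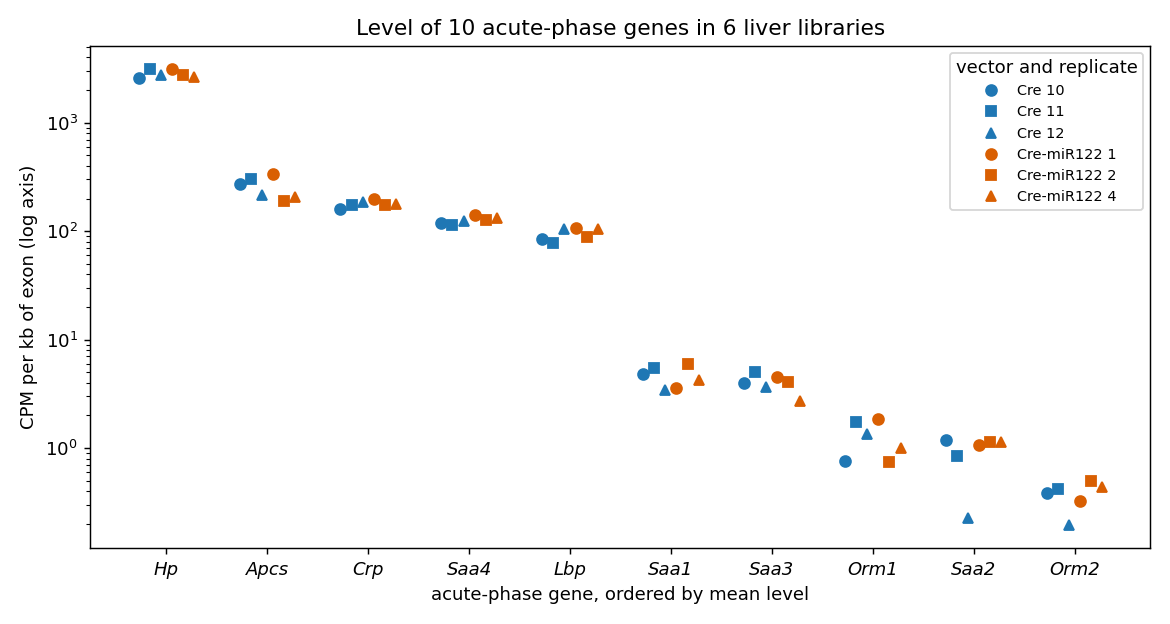
Level of each acute-phase gene in the 6 libraries, in CPM per kb of exon on a log axis, with 1 point per library, blue for Cre and orange for Cre-miR122. Hp, Apcs, Crp, Saa4 and Lbp all lie above 77 CPM per kb in every library, and Saa1, Saa3, Orm1, Saa2 and Orm2 all lie below 6.

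None of the 9 members tested was called different between the vectors in the test over all genes. Of the 10 genes 9 passed the filter on low counts and Orm2 did not. By the edgeR quasi-likelihood test with Benjamini-Hochberg adjustment, 0 were higher and 0 lower in Cre-miR122, against a background of 0.00% of the 14374 genes tested. At an unadjusted p under 0.05 there were 0 of 9 members, against 5.41% of all genes (2.76% higher), and DESeq2 and limma-voom also called 0. The log2 fold change, Cre-miR122 minus Cre, was above 0 for 6 members and below 0 for 3. Their median was 0.0028, beside -0.0029 over all genes tested. The libraries of the groups did not overlap for 1 of the 9, Saa4, against 11.1% of all genes. Split by direction, 1 of 9 was higher, against 5.69%, and 0 of 9 lower, against 5.45%. The Cre transcript, whose groups did not overlap, was not called by the edgeR test either (log2 fold change -1.95, SE 0.28, adjusted p = 0.816). DESeq2 did call Cre (adjusted p = 0.0047). That a gene was not called by the edgeR test therefore does not show that it was unchanged.

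**Figure D2:**
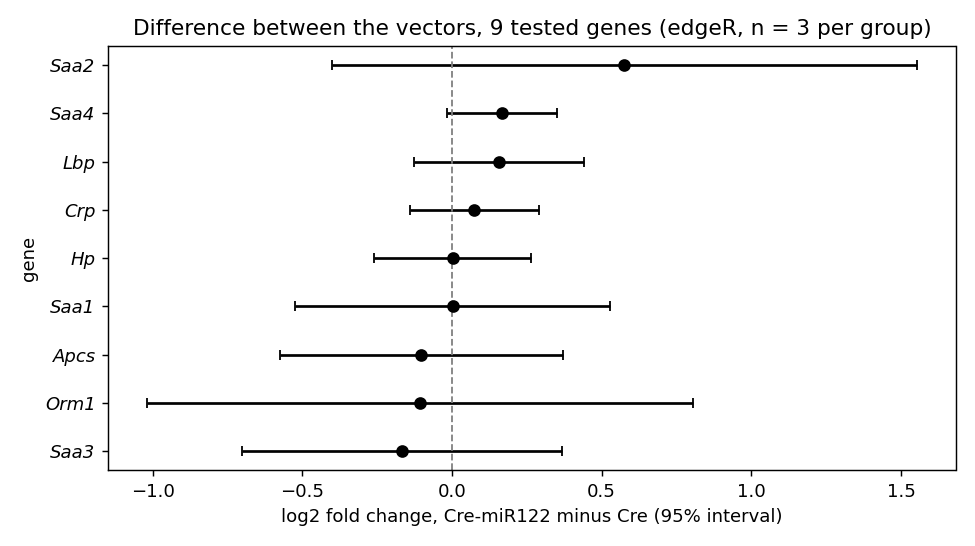
log2 fold change of the 9 tested genes, Cre-miR122 minus Cre, from edgeR with 3 libraries per group, and bars for the 95% interval. All 9 intervals include 0, and they are widest for Saa2 and Orm1, which have few counts.

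The serum amyloid A genes lie in 42.3 kb of chromosome 7 (build GRCm38), in the order Saa3 (46711998 to 46715676), Saa4 (46727998 to 46732543), Saa1 (46740497 to 46743071) and Saa2 (46751769 to 46754314). Saa2 is on the plus strand and the other three are on the minus strand, so that Saa1 and Saa2 are transcribed away from each other. Saa1 and Saa2 encode the inducible apolipoproteins of high-density lipoprotein, Saa3 an inducible form made also outside hepatocytes, and Saa4 the constitutive form. The sequence upstream of each gene is shown because these neighbours stood at such different levels. Each is from RefSeq (GRCm38.p6), on the strand of the gene, within the 250 bases before the RefSeq start. Bases that annotated exons cover are left out. Capitals mark matches to a C/EBP motif, spelled TTGCNNAA on either strand.
Saa1, chr7:46743072-46743230, minus strand: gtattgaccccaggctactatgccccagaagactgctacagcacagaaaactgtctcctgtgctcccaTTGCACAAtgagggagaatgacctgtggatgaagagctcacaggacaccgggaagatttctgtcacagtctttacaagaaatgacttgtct
Saa2, chr7:46751583-46751768, plus strand: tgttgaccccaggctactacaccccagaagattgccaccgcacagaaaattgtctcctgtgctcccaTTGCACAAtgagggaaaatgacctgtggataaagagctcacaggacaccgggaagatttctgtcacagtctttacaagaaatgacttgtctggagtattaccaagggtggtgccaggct
Saa3, chr7:46715677-46715926, minus strand: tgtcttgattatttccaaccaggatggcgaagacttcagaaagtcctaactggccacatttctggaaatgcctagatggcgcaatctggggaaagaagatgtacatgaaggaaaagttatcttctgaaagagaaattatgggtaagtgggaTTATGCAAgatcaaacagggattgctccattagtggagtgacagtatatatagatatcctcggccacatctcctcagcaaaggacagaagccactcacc
Saa4, chr7:46732604-46732853, minus strand: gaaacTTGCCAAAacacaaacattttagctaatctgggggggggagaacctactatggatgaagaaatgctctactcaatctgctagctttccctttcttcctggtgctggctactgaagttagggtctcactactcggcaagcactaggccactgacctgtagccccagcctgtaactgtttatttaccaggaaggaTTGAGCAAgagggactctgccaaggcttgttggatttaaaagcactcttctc

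Over the whole 250 bases, the windows of Saa1 and Saa2 were 94.8% identical, while Saa1 was 52.2% identical to Saa3 and 49.5% to Saa4. The C/EBP letters stood at 182 to 175 bases before the RefSeq start of Saa1, 183 to 176 before Saa2 and 99 to 92 before Saa3. Saa4, the abundant gene, had them at 245 to 238 and at 52 to 45. Among the Saa genes, only the Saa3 window adjoins the gene as positioned above. The window base next to the RefSeq start was 46742981 for Saa1, 46751832 for Saa2 and 46732604 for Saa4. The motif positions depend on this choice of start and cannot be compared between the genes. Of the 7 members with an entry in the promoter table, Orm2 also held the motif (120 to 113 bases before the start), and 9.56% of 32851 windows of the same length held it. Saa1 and Saa2 are copies and do not count as separate cases. The other motifs searched on both strands were TTCNNNGAA for STAT factors (7.02% of windows, and Apcs), GTTAAT for HNF1 (6.43%), TATAAA (12.4%, and Crp and Orm2) and the NF-kB consensus (7.25%). A match is a description of letters and not a binding site.

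Saa4 had the smallest spread within groups of the 10 genes and was the one tested gene whose groups did not overlap. Its level was 244, 234 and 250 CPM in Cre replicates 10, 11 and 12, and 290, 258 and 270 CPM in Cre-miR122 replicates 1, 2 and 4. Every Cre-miR122 library thus lay above every Cre library. Mean levels were 243 ± 8.10 CPM under Cre against 273 ± 16.1 CPM under Cre-miR122 (SD, n = 3 each), for a log2 fold change of 0.17 (SE 0.082, 95% interval -0.017 to 0.35). The unadjusted p was 0.0699 and the edgeR adjusted p over all genes was 0.816, so the difference did not pass. Its SD of log2 CPM within groups, 0.069, was smaller than that of all but 9.37% of the genes tested, whose median was 0.16.

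Saa1 was low, and its libraries overlapped between the vectors. It had 89, 108 and 63 counts in Cre replicates 10, 11 and 12, and 65, 113 and 81 in Cre-miR122 replicates 1, 2 and 4. The highest library, Cre-miR122 replicate 2 at 5.46 CPM, had an exact 95% Poisson interval of 4.50 to 6.57 CPM. For Cre replicate 12, the lowest at 3.15 CPM, it ran from 2.42 to 4.03 CPM. Such intervals cover counting error only. The group means were 4.198 ± 0.959 and 4.21 ± 1.14 CPM (SD, n = 3 each), with a log2 fold change of 0.0023 (SE 0.23, edgeR adjusted p = 0.997) and a 95% interval of -0.52 to 0.53.

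Saa2 was lower still, and 1 library stood apart from the others. Its counts were 21, 16 and 4 with Cre and 19, 21 and 21 for Cre-miR122. Cre replicate 12, with the 4 counts, was at 0.200 CPM (95% Poisson interval 0.0545 to 0.512), below the other 5 libraries at 0.746 to 1.04 CPM. The log2 fold change of 0.58 (SE 0.43, edgeR adjusted p = 0.821) was 0.16 without Cre replicate 12 and was 1.04 without Cre replicate 10. Cre replicate 12 was also the lowest library for Saa1 and Orm2. Saa2 made up 19.1%, 12.9% and 5.97% of the counts of Saa1 and Saa2 together in Cre replicates 10, 11 and 12, against 22.6%, 15.7% and 20.6% in Cre-miR122 replicates 1, 2 and 4. The shares overlapped between the groups. For the difference of 6.97 percentage points, the exact permutation p was 0.2 (two-sided, where 3 against 3 cannot go below 0.1). The difference was 3.63 points without Cre replicate 12.

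Saa3 had the smallest spread within groups among the low genes (SD of log2 CPM 0.31). It had 43, 57 and 39 counts for Cre and 48, 45 and 30 for Cre-miR122. The libraries overlapped, with the lowest value in Cre-miR122 replicate 4 and the highest in Cre replicate 11. The chi-square of its counts against equal levels was 1.65 per degree of freedom, where counting error alone gives about 1, beside 4.31 for Saa1. The log2 fold change was -0.17 (SE 0.24, edgeR adjusted p = 0.896). Macrophages and adipocytes are known sources of Saa3. Of the 8 adipocyte markers, Plin1, Lep and Retn had no count in any library, Adipoq at most 1 and Cfd at most 3. The other adipocyte markers, which are not made by adipocytes alone, were present, with 36 to 53 counts for Cidec, 345 to 688 for Fabp4 and 50015 to 93879 for Pck1. All 10 Kupffer cell and macrophage markers were detected in every library. The part of these cells in the Saa3 counts was not tested.

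Hp, whose product binds free haemoglobin so that it can be cleared, was the most abundant member and did not separate the vectors. It lies on chromosome 8 (109575128 to 109579172). Its level was 3480, 4233 and 3729 CPM in Cre replicates 10, 11 and 12 and 4201, 3679 and 3585 CPM in Cre-miR122 replicates 1, 2 and 4. Each group held 1 high library, Cre replicate 11 and Cre-miR122 replicate 1. The means were 3814 ± 384 and 3822 ± 332 CPM (SD, n = 3 each), with a log2 fold change of 0.0028 (SE 0.12, edgeR adjusted p = 0.997). The 95% interval of -0.26 to 0.26 bounds the difference, and the sign turned when single libraries were left out. Cd163, which encodes the macrophage receptor for haptoglobin bound to haemoglobin, was at 5.89, 12.9 and 11.4 CPM with Cre and 13.6, 15.04 and 13.5 CPM for Cre-miR122. Its groups did not overlap, but its log2 fold change of 0.48 (SE 0.23) had an edgeR adjusted p of 0.816. Groups did not overlap for 3 of the 21 receptor and clearance genes tested, against 11.1% of all genes.

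The orosomucoid genes, which encode plasma carriers of basic drugs and modulators of immunity, had few counts in every library. They lie within 21.3 kb of chromosome 4, Orm1 at 63344556 to 63348163 and Orm2 at 63362449 to 63365877. Orm1 had 12, 29 and 21 counts for Cre and 29, 12 and 16 for Cre-miR122, with the 2 highest libraries in different groups. Its log2 fold change was -0.11 (SE 0.41, edgeR adjusted p = 0.961), with a 95% interval of -1.02 to 0.80. The spread of its counts exceeded counting error, at a chi-square of 3.02 for each degree of freedom. Orm2 had 6, 7 and 3 counts for Cre and 5, 8 and 7 for Cre-miR122, and was not tested. Its libraries differed by no more than counting noise gives (chi-square 0.476 for each degree of freedom). Orm2 gave 12.5% to 33.3% of the Orm1 and Orm2 counts with Cre, against 14.7% to 40% for Cre-miR122 (difference 6.62 points, exact permutation p = 0.6, two-sided). Over 18 to 36 counts per library, single shares had exact 95% binomial intervals as wide as 13.3% to 59.0%.

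**Figure D3:**
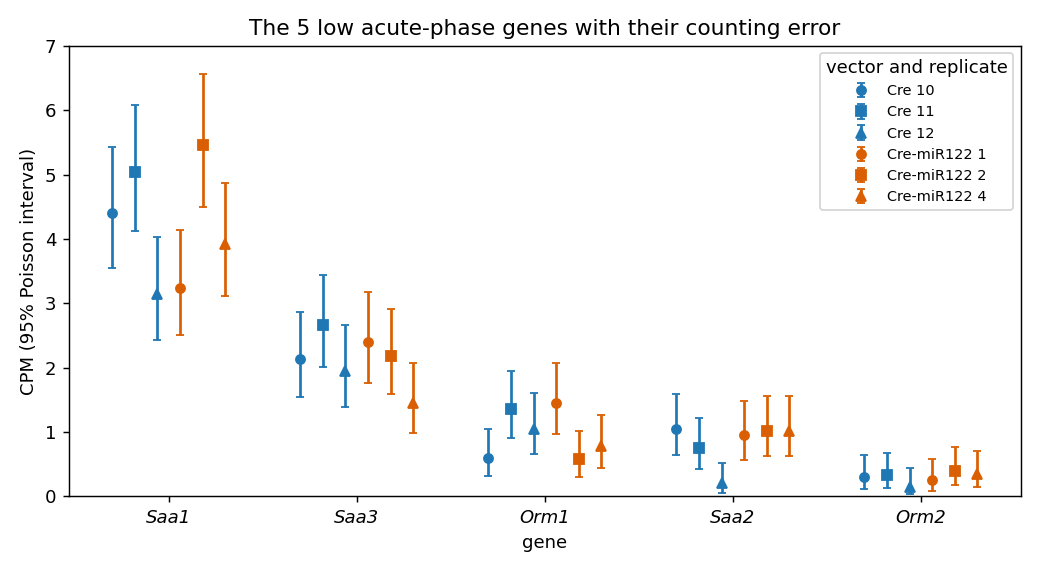
CPM of the 5 low genes in each library with exact 95% Poisson intervals, blue for Cre and orange for Cre-miR122. Most intervals of a gene overlap, Saa2 in Cre replicate 12 (0.200 CPM) lies lowest for that gene, and Orm2 stays below 0.4 CPM in every library.

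Near-identical copies can lose reads that match more than 1 place, so each member's transcript was compared with all annotated transcripts. Orm1 and Orm2 were 91.0% identical with a longest shared run of 141 bases, and Saa1 and Saa2 94.4% with a longest run of 76 bases. Of all windows of 50 bases, 20.4% in Orm1, 22.7% in Orm2, 14.8% in Saa1, 9.12% in Saa2 and 1.78% in Saa3 also occurred in a transcript of another gene. At 100 bases the share was 6.95% for each of Orm1 and Orm2 and 0 for the other 8 members. Most windows of the low genes were therefore their own. How multi-mapping reads were counted, and the read length, were not given in the sources used here. Within these pairs, the split of counts is uncertain to that extent.

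The pentraxin genes, Crp and Apcs, encode pattern recognition proteins that bind microbes and dying cells. They lie within 197 kb of chromosome 1, Crp at 172698056 to 172699966 and Apcs at 172893961 to 172895054. Crp was even, at 270, 299 and 318 CPM with Cre and 339, 295 and 299 CPM for Cre-miR122. The groups overlapped, and the log2 fold change was 0.075 (SE 0.096, edgeR adjusted p = 0.879). Apcs varied more, at 266, 295 and 213 CPM with Cre and 333, 186 and 203 CPM for Cre-miR122. Cre-miR122 replicate 1 was thus the highest library and replicates 2 and 4 the lowest, so that the Cre libraries lay between them. The log2 fold change of Apcs was -0.10 (SE 0.21, edgeR adjusted p = 0.930), and without Cre-miR122 replicate 1 it was -0.41. Its SD of log2 CPM within groups was 0.36, larger than that of 86.5% of the genes tested, and for Crp it was 0.11.

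Apcs had the largest spread over the 6 libraries among members with a mean of at least 1 CPM. The genes whose centred log2 CPM lay nearest to it over the 6 libraries, out of 13042 compared, were Iqcd (root mean square distance 0.057), Krt19 (0.068), 1810055G02Rik (0.072), Clca3a1 (0.080) and Il20rb (0.081). None of these is an acute-phase gene of the lists used here. The closest member was Hp at 0.24. The nearest genes were picked from all 13042 and Hp from the few members, so these distances cannot be set against each other. Among the 7 members with a mean of at least 1 CPM the nearest pairs were Saa4 and Crp (0.084) and Hp and Crp (0.088), and the farthest was Saa1 and Apcs (0.47). Counting error adds to the distances of Saa1 and Saa3, which have few counts.

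**Figure D4:**
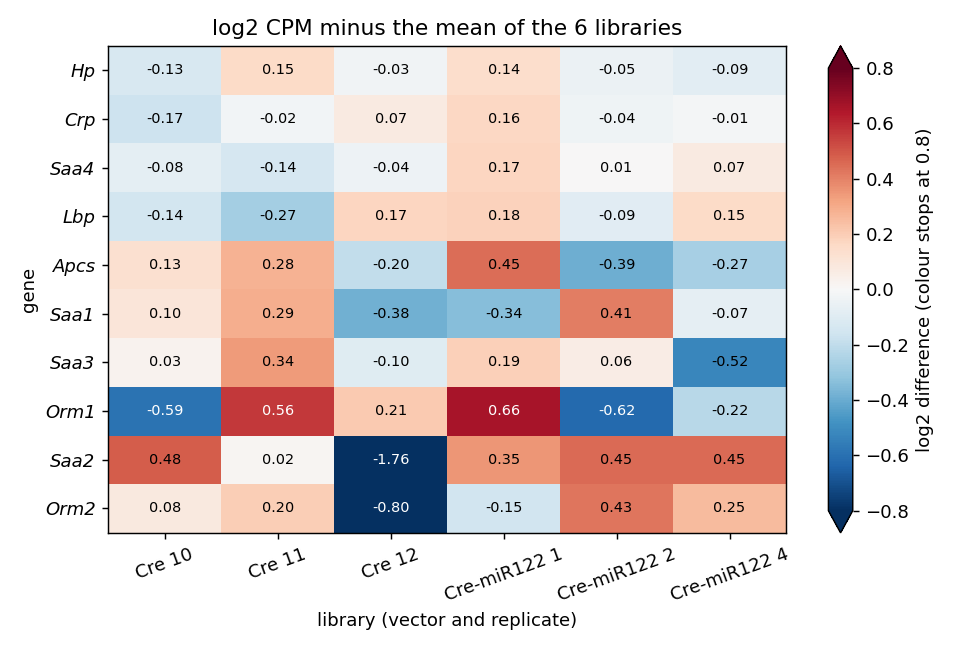
log2 CPM of each member minus its mean over the 6 libraries, with 1 row per gene and 1 column per library. Apcs is high in Cre replicates 10 and 11 and Cre-miR122 replicate 1 and low in the other three, Saa2 is lowest in Cre replicate 12 at -1.76, and the rows of Hp, Crp and Saa4 stay within 0.2 of 0.

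Lbp, which encodes the plasma protein that hands bacterial lipopolysaccharide to CD14, lies on chromosome 2 (158306493 to 158332852). It was at 213, 195 and 266 CPM with Cre and 268, 221 and 262 CPM for Cre-miR122. Cre replicate 12 stood among the Cre-miR122 libraries, and so the groups overlapped. The means were 225 ± 36.6 and 251 ± 25.3 CPM (SD, n = 3 each), a log2 fold change of 0.16 (SE 0.13, edgeR adjusted p = 0.824). Without Cre replicate 12 it was 0.30, and without Cre replicate 11 it was 0.064. Cd14, the partner of Lbp, was at 3.55 to 3.96 CPM with Cre and 3.48 to 4.34 CPM for Cre-miR122, and Tlr4, the signalling receptor, at 4.401 to 6.67 and 4.34 to 5.37 CPM. Neither passed the test (edgeR adjusted p = 0.942 for Cd14 and 0.821 for Tlr4).

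The cytokines known to drive many acute-phase genes had few counts. Il6 had 0 to 2 counts per library (a count of 0 allows up to 3), Tnf 2 to 5 and Il1b 13 to 29. Of 21 cytokine and receptor genes 15 were tested, and 0 passed in either direction (9 above 0 and 6 below, median 0.041). Among the receptors, Il1r1 was at 85.8, 110 and 88.5 CPM with Cre and 192, 109 and 114 CPM for Cre-miR122 (a log2 fold change of 0.54, SE 0.20), and it was 0.23 without Cre-miR122 replicate 1. Il6ra, the interleukin-6 receptor, was at 33.1 to 59.0 and 56.9 to 76.5 CPM (0.48, SE 0.20), and 0.25 without Cre replicate 11. Il6st, the shared signalling chain gp130, had groups that did not overlap, at 61.8 to 73.4 and 74.6 to 80.9 CPM (0.17, SE 0.088). That was 1 of the 15 tested, against 11.1% of all genes. The smallest edgeR adjusted p among these genes was 0.816.

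Signal and transcription factor genes were present at middle levels and 0 of 24 tested passed in either direction (12 above 0 and 12 below, median -0.014). Stat3 was at 94.8 to 120 CPM with Cre and 121 to 153 CPM for Cre-miR122, without overlap (log2 fold change 0.29, SE 0.12, edgeR adjusted p = 0.816), and it was 0.18 without Cre-miR122 replicate 4. Nfkbia, which encodes the inhibitor of NF-kB, was at 29.7 to 30.7 and 22.9 to 26.6 CPM (-0.26, SE 0.085). Cebpa, a C/EBP factor of the resting hepatocyte, was at 286 to 305 and 250.2 to 276 CPM (-0.15, SE 0.080). Socs3, the feedback inhibitor that STAT3 induces, was at 6.09 to 12.1 and 6.24 to 11.4 CPM (0.037, SE 0.28). The inflammation-induced factors Cebpb (48.7 to 110 CPM over the 6 libraries) and Cebpd (6.53 to 14.2 CPM) overlapped between the groups. Groups did not overlap for 3 of the 24, against 11.1% of all genes.

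Other acute-phase genes did not pass either. Of 27 further positive acute-phase genes 26 had a row and 23 were tested, with 0 called, 16 above 0 and 7 below (median 0.062). Serpina3n, a protease inhibitor gene, was at 785 to 1054 CPM with Cre and 1079 to 1203 CPM for Cre-miR122 (a log2 fold change of 0.27, SE 0.13), and it was 0.14 without Cre replicate 11. Lcn2, which encodes an iron-trapping lipocalin, was at 11.2 to 17.9 and 14.3 to 27.6 CPM (0.48, SE 0.24), and 0.19 without Cre-miR122 replicate 1. A1bg, a plasma glycoprotein gene, was at 0.892 to 1.75 CPM with Cre and 0.484 to 0.698 CPM for Cre-miR122 (-1.18, SE 0.33). Each of these 3 genes had an edgeR adjusted p of 0.816. Of 13 negative acute-phase genes, which fall in inflammation, 0 were called, 5 lay above 0 and 8 below (median -0.054). Fetub, a fetuin gene, had the smallest p at a log2 fold change of -0.22 (SE 0.11), with 638 to 768 and 532 to 658 CPM, and it was -0.13 without Cre replicate 11. Receptor and clearance genes had 0 of 21 called, 5 above 0 and 16 below (median -0.11). Fpr2, a receptor for serum amyloid A on myeloid cells, was at 1.39 to 3.08 CPM with Cre and 1.06 to 1.30 CPM for Cre-miR122 (-0.78, SE 0.32), and -0.35 without Cre replicate 11. Lrp1, a clearance receptor gene, was at 578 to 662 and 630 to 861 CPM (0.30, SE 0.12), and 0.19 without Cre-miR122 replicate 4. The complement gene C1qb was at 52.7 to 65.4 and 47.0 to 51.7 CPM (-0.25, SE 0.096), and -0.17 without Cre replicate 11, and C1qc at 55.8 to 63.2 and 45.8 to 57.1 CPM (-0.23, SE 0.10). C1qa and C1qb are also among the Kupffer cell and macrophage markers, of which 8 of 10 lay below 0, so these lists are not separate observations. The sums of the neutrophil markers and of the Kupffer cell and macrophage markers are given above. The part of these cells in the values of the receptor and clearance genes was not tested.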

How the data were processed

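The authors deposited whole-number read counts per gene, without normalization, for bulk mouse liver. The submitters' processing notes name STAR 2.7.9a, featureCounts 2.0.1 and the build GRCm38 (mm10). For strand and multi-mapping, the settings were not given in the sources used here. In addition, the deposited table holds each gene's exonic length, which was used for CPM per kb. A further 5 per-sample columns belong to none of the samples and stayed out.

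Groups came from the sample titles. Genes were tested with the edgeR 4.0.16 quasi-likelihood F test in R 4.3.3 (TMM scaling, filterByExpr with a minimum count of 10, group alone, two-sided, Benjamini-Hochberg adjusted p under 0.05). Standard errors were derived from the F statistic. Profiles used log2 CPM with 0.5 added to each count. Alternatives were RLE scaling, no filter, a CPM of at least 1 in 3 libraries, DESeq2 1.42.0, limma-voom (limma 3.58.1), leaving out the 10 most abundant genes, and leaving out each library in turn. The tests were checked on simulated data. Transcripts were from GENCODE mouse release M21. The members, lists and tests were chosen with earlier results of these data known. Named genes were all members, up to 4 tested genes with the smallest p per list, 10 fixed genes and the 5 nearest profiles, with Alb, Cre, Xist, Ddx3y and marker genes given as checks. Some of them are covered by counts alone, and 1 is not reported here.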

Additional observations from a re-analysis of the deposited data

How the results depend on the processing

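The count of members called stayed at 0 under all 12 alternatives, leaving out each library included (0 to 0). Over all genes, 0 were called by the edgeR test, 2 without a filter on low counts and 3 with DESeq2, none of them a member, and 0 to 0 with each library left out. Crp, Lbp, Saa2 and Saa4 kept their direction in all 12, and Saa4 ranged from 0.12 to 0.20. The sign of the near-zero members turned. Saa1 was at -0.00037 under the filter on CPM and -0.0062 with limma-voom, and ranged from -0.23 to 0.16 with a library left out. With a library left out, Hp ranged from -0.070 to 0.083, Orm1 from -0.56 to 0.18, Apcs from -0.41 to 0.051 and Saa3 from -0.31 to 0.022. The differences in share were 0.811 to 13.5 points for Orm2 and 3.63 to 10.2 points for Saa2 with a library left out, all above 0. No paired analysis was made because the labels do not say whether libraries of the groups are paired. For Orm1, Orm2 and Saa2, fewer than 30 counts per library limit what can be seen.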
